A study of Mus musculus with 12 samples.

Results

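The TET dioxygenases Tet1, Tet2 and Tet3 and the growth arrest and DNA damage genes Gadd45a, Gadd45b and Gadd45g were followed through MYC-driven T-cell lymphomas of the mouse. These 6 genes, of 19309 that were tested, were chosen by name. Each was read from a probe set annotated with that gene alone, and the brightest set by its mean over the 12 arrays stood for a gene that had several. RNA from the thymus of FVB/N mice was hybridised to whole-transcript expression arrays in 3 groups. The 4 Dnmt3a-deficient tumors carried a deletion of Dnmt3a, which encodes a de novo DNA methyltransferase, in the hematopoietic compartment. The 5 control tumors were labelled wild type for Dnmt3a, and both tumor groups arose in the presence of MYC and were taken at the terminal stage. The 3 samples of normal thymocytes came from wild-type mice, with an age labelled 24 dpn. The sources used here name no driver of MYC or of the deletion. They also do not say that arrays stand for different animals, and the p-values then cover only the spread among the arrays, which may be technical. A numeric age is given only for normal thymocytes, so age and tumor state cannot be told apart.

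TET enzymes oxidise methylated cytosine in DNA, a step that leads to its replacement by unmodified cytosine through base excision repair or through dilution at replication. Loss-of-function mutations of TET2 are known from human T-cell lymphomas and other blood cancers. The Gadd45 proteins are small, acidic, stress-induced proteins without known enzyme activity. They bind the kinase MTK1 (Map3k4) upstream of the stress-activated MAP kinases, PCNA and cell cycle kinases, and they have been described as adaptors that bring repair enzymes to methylated DNA. DNA methylation itself was not measured on these arrays.

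The bases before the transcription start of the 3 Gadd45 genes are shown because the levels of these genes, described further on, were ordered differently over the groups. The stretches are the 250 bases before the start in the RefSeq promoter table of build GRCm38.p6, at chr6:67037408-67037657 on the minus strand, chr10:80929841-80930090 on the plus strand and chr13:51846425-51846674 on the plus strand, written 5′ to 3′ on the strand of the gene. Capitals mark 3 motifs searched on both strands, which do not overlap in these stretches: CACGTG, the E-box bound by MYC and MAX, CCAAT and TATAAA.
Gadd45a: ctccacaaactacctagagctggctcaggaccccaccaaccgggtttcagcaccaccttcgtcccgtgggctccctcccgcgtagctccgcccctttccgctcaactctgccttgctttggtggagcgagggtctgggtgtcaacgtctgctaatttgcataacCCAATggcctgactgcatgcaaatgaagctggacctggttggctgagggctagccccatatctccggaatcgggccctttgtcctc
Gadd45b: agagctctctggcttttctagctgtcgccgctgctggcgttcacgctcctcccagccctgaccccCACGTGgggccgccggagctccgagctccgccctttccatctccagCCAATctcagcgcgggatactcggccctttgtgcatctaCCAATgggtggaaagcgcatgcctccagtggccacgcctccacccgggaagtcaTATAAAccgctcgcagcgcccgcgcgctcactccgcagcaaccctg
Gadd45g: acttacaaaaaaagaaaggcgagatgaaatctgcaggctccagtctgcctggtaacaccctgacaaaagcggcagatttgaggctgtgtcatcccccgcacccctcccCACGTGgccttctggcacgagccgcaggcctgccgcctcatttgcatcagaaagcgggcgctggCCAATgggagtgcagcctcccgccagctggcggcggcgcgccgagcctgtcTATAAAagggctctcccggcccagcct

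Gadd45b and Gadd45g each held 1 CACGTG, beginning 185 and 142 bases before the start, and Gadd45a held none. TATAAA occurred once in Gadd45b (46 bases before the start) and once in Gadd45g (27 bases), and not in Gadd45a. CCAAT was found once in Gadd45a, at 86 bases, once in Gadd45g, at 78 bases, and at 2 places in Gadd45b, 139 and 100 bases before the start. Of the 32851 promoters of the table, 6.0% held CACGTG, 33.8% CCAAT and 12.4% TATAAA in the same window. All 6 members had an entry in this table. CpG dinucleotides, the targets of DNA methyltransferases, numbered 11 in Gadd45a, 22 in Gadd45b and 16 in Gadd45g, and 15 in Tet1, 51 in Tet2 and 17 in Tet3, against a median of 6 over all promoters. None of the TET windows held CACGTG or TATAAA, and Tet3 alone among them held CCAAT, in reverse orientation. A match describes these letters and not a bound site.

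Values are log2 expression per probe set, normalized by the authors with RMA, so a difference of 1 is a 2-fold change. Array medians lay between 6.40 and 6.58. The 75th percentile was higher in the 4 deficient tumors and in control tumors 1 and 2 (8.502 to 8.60) than in control tumors 3, 4 and 5 and in normal thymocytes (8.13 to 8.30), and member differences are also given against each of these classes of control tumors or with the class as a block in the fit. Dnmt3a itself had a log2 level of 7.42 ± 0.20 (SD) in the 4 deficient tumors, 8.67 ± 0.53 in the 5 control tumors and 9.48 ± 0.15 in the 3 samples of normal thymocytes, and no deficient tumor reached the lowest control tumor. Of 13 thymocyte markers 8 were called lower in each tumor group than in normal thymocytes and none higher, and the mean over the markers was 9.38 to 10.18 in deficient tumors, 9.40 to 10.50 in control tumors and 11.19 to 11.25 in normal thymocytes. The mean of 13 neutrophil markers was 7.84 and 7.73 in control tumors 3 and 4, against 5.37 to 6.05 in deficient tumors, 5.60 to 5.93 in the other control tumors and 6.34 to 6.77 in normal thymocytes. The mean of 8 adipocyte markers was 8.38 in control tumor 2 and 5.28 to 5.58 on all other arrays. The mean of 12 macrophage markers ran from 6.17 in control tumor 5 to 7.72 in control tumor 2. It was 6.82 to 7.61 in deficient tumors and 6.57 to 6.835 in normal thymocytes. The mean of 5 erythroid markers was 5.82 to 6.38 in deficient and 5.54 to 6.27 in control tumors, against 6.45 to 6.91 in normal thymocytes. Because whole tissue was measured, fewer cells of a type and less RNA per cell cannot be told apart.

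The comparison of Dnmt3a-deficient with control tumors sets MYC-driven lymphomas with the deletion beside lymphomas labelled wild type for Dnmt3a. Some control tumors also differed in neutrophil, macrophage or adipocyte markers or in percentile class, as given above. Gadd45b was higher in the deficient tumors by about the same factor as Gadd45g was lower, but only Gadd45b passed the test over all genes. Gadd45a was lower in every deficient tumor than in any control tumor and missed the threshold. The 3 TET genes did not pass it. With limma, 1 of the 6 members was called at an adjusted p under 0.05, while 0.818% of all 19309 genes were called, 0.59% higher and 0.228% lower. The groups did not overlap for 2 of the 6 members, Gadd45a and Gadd45b, and for 6.15% of all genes. At an unadjusted p under 0.05 there were 4 members, while 20.2% of all genes were under it.

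**Figure D1:**
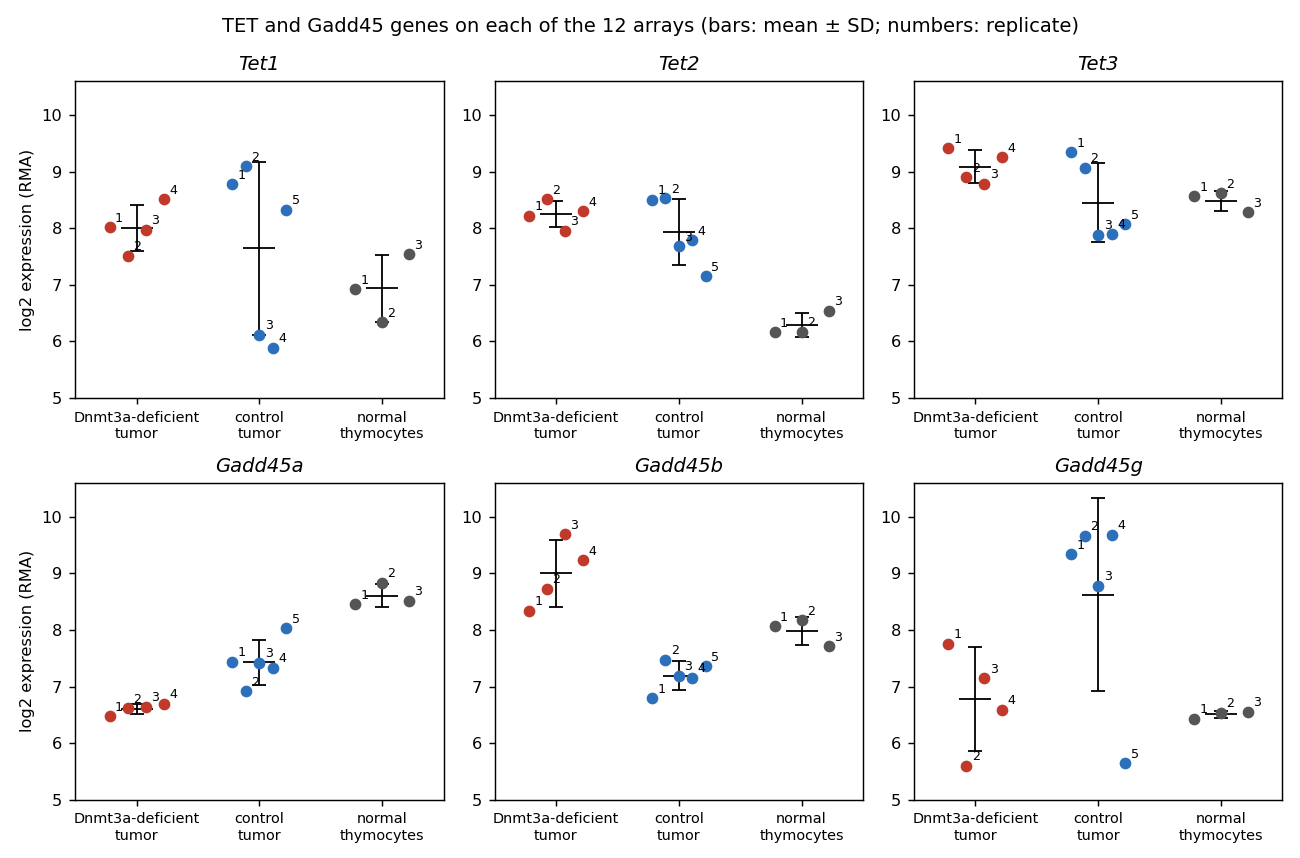
Log2 expression of the 6 genes on each of the 12 arrays (vertical axis), with Dnmt3a-deficient tumors (n = 4) on the left, control tumors (n = 5) in the middle and normal thymocytes (n = 3) on the right of each panel. Points are arrays with their replicate number, and bars are the mean and SD. Gadd45b lies at 8.34 to 9.69 in deficient tumors and at 6.79 to 7.47 in control tumors, while Tet1 spans 5.89 to 9.10 within the control tumors.

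Gadd45b, an immediate early gene that protects lymphocytes from death downstream of NF-kappaB and supports cytokine production in T cells, was the member called in all 3 comparisons. Its log2 levels were 8.34, 8.73, 9.69 and 9.23 in deficient tumors 1 to 4, against 6.79, 7.47, 7.19, 7.16 and 7.36 in control tumors 1 to 5. Normal thymocytes had 8.07, 8.17 and 7.71. Every deficient tumor lay above every normal sample, and every control tumor lay below every normal sample. The group means were 8.999 ± 0.59 for deficient tumors (SD, n = 4), 7.19 ± 0.26 for control tumors (n = 5) and 7.98 ± 0.24 for normal thymocytes (n = 3).

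Deficient tumors exceeded control tumors by a log2 difference of 1.81 (SE 0.240, 95% confidence interval 1.29 to 2.32), a 3.49-fold higher level (limma adjusted p = 0.0144). The difference was 1.87 against control tumors 1 and 2 alone, which share the higher 75th percentile (adjusted p = 0.0509), and 1.76 against control tumors 3, 4 and 5 (adjusted p = 6.3e-04). Without control tumors 3 and 4, the arrays with high neutrophil markers, it was 1.79 (adjusted p = 0.0768), and with the tumors alone in the fit the adjusted p was 0.0537. The difference from normal thymocytes was 1.02 (SE 0.273, 2.02-fold, adjusted p = 0.0104). Quantile normalization applied once more gave 0.65 (adjusted p = 0.0920), and leaving out normal thymocytes 3 gave 0.88 (adjusted p = 0.0508) and the percentile class as a block gave 1.12 (adjusted p = 0.0932), none of them called. Control tumors fell below normal thymocytes by a log2 difference of -0.79 (SE 0.261, limma adjusted p = 0.0424). That call was lost in 7 of 12 fits with 1 array left out. The highest adjusted p among these, 0.160, came when normal thymocytes 2 was absent. It was also lost in 5 of 12 other alternatives, with an adjusted p of at most 0.0979.

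Gadd45b lies on chromosome 10 between Lmnb2 and Gng7 among the tested genes. Lmnb2, which encodes a nuclear lamin, differed by 0.42 between deficient and control tumors (SE 0.123, adjusted p = 0.112) and Gng7, a G protein gamma subunit, by 0.02 (SE 0.174, adjusted p = 0.967). The next genes outward, Timm13 and Diras1, differed by 0.27 (adjusted p = 0.242) and -0.42 (adjusted p = 0.161). None of these 4 neighbours was called between the tumor groups, and each differed there by less than Gadd45b. In deficient tumors Diras1 differed from normal thymocytes by -0.85 (limma adjusted p = 0.0021) and Lmnb2 by 0.38 (adjusted p = 0.0462), both called. Timm13 and Gng7 were not called there. With control tumors in place of deficient tumors, no neighbour had an adjusted p under 0.05.

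The genes closest to Gadd45b in pattern were named by the smallest mean absolute difference between gene-centred log2 values over the 12 arrays, among 16975 genes. They were Slc23a4 (0.265 log2 units), the serine protease gene Prss57 (0.272) and the sphingosine phosphate receptor gene S1pr2 (0.300), while the mean absolute deviation of Gadd45b from its own mean was 0.712. Prss57 also lies on chromosome 10, with 62 tested genes between it and Gadd45b, and was higher by 1.88 in deficient than in control tumors (SE 0.370, adjusted p = 0.0413). Slc23a4 was higher by 1.35 (SE 0.271, adjusted p = 0.0451) and S1pr2 differed by 1.14 (SE 0.271, adjusted p = 0.0718). These genes were picked by their likeness to Gadd45b on the same arrays, so such differences follow from that choice and are no separate result. Whether genes picked in this way share a chromosome more often than others was not tested.

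Gadd45a, a target of the tumor suppressor Trp53 that restrains the passage from G2 into mitosis, stepped down from normal thymocytes through control tumors to deficient tumors. Its log2 levels were 6.48, 6.61, 6.65 and 6.69 in deficient tumors 1 to 4, against 7.44, 6.92, 7.42, 7.34 and 8.03 in control tumors 1 to 5. Normal thymocytes had 8.46, 8.84 and 8.52. No group overlapped another, and the deficient tumors lay close together. Means were 6.61 ± 0.09 for deficient tumors (SD, n = 4), 7.43 ± 0.40 for control tumors (n = 5) and 8.60 ± 0.21 for normal thymocytes (n = 3).

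Against normal thymocytes Gadd45a fell in both tumor groups. The log2 difference was -1.996 in deficient tumors (SE 0.210, 3.99-fold lower, limma adjusted p = 1.4e-05) and -1.17 in control tumors (SE 0.201, 2.26-fold lower, adjusted p = 8.1e-04). These comparisons share the normal samples. Both were called in all alternatives that were run. Between deficient and control tumors the difference was -0.82 (SE 0.185, 95% confidence interval -1.22 to -0.42), 1.77-fold lower, with an adjusted p of 0.0607. That difference was called without control tumor 1 (-0.82, adjusted p = 0.0427), without control tumor 2 (-0.95, adjusted p = 0.0119), without both (-0.99, adjusted p = 0.00192) and without the dimmest 50% of genes (adjusted p = 0.0468). Against control tumors 1 and 2 alone it was -0.57 (adjusted p = 0.259).

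The patterns most like that of Gadd45a were those of the kinase adaptor gene Mob3a (mean absolute difference 0.167 over 12 arrays), Cstf2t (0.170), a paralog of the gene for a messenger RNA cleavage factor, and Arid5a (0.188), which encodes an RNA-binding protein. The mean absolute deviation of Gadd45a from its own mean was 0.674. Mob3a differed by -0.85 between deficient and control tumors (SE 0.175, adjusted p = 0.0477), and by -1.80 (adjusted p = 1.9e-05) and -0.95 (adjusted p = 0.00240) between each tumor group, deficient first, and normal thymocytes. Mob3a was picked by its likeness to Gadd45a on these arrays, so its differences follow from that choice.

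Gadd45g, a cytokine-induced member that supports stress kinase signaling in T helper cells, was high in 4 of 5 control tumors. Its log2 levels were 7.76, 5.60, 7.15 and 6.59 in deficient tumors 1 to 4, against 9.34, 9.66, 8.78, 9.68 and 5.65 in control tumors 1 to 5. Normal thymocytes had 6.43, 6.54 and 6.55. Control tumors 1 to 4 lay above every other array, while control tumor 5 lay below all normal samples and beside deficient tumor 2. The means were 6.77 ± 0.92 for deficient tumors (SD, n = 4), 8.62 ± 1.70 for control tumors (n = 5) and 6.51 ± 0.07 for normal thymocytes (n = 3).

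The calls of Gadd45g turned on control tumor 5 and on other settings. Deficient tumors differed from control tumors by -1.85 (SE 0.701, 95% confidence interval -3.36 to -0.34, 3.60-fold lower, limma adjusted p = 0.174), and by -2.59 without control tumor 5 (adjusted p = 0.0123). Control tumors differed from normal thymocytes by 2.12 (SE 0.763, 4.33-fold higher, adjusted p = 0.0607), and by 2.86 without control tumor 5 (adjusted p = 2.4e-04). With all arrays but without the dimmest 50% of genes that difference was also called (adjusted p = 0.0425). Against control tumors 1 and 2 alone deficient tumors differed by -2.73 (adjusted p = 0.0347), and against control tumors 3, 4 and 5 by -1.26 (adjusted p = 0.252). The differences of these control tumors from normal thymocytes were 3.00 (adjusted p = 7.5e-04) and 1.53 (adjusted p = 0.208), control tumors 1 and 2 first. Deficient tumors and normal thymocytes differed by 0.27 (SE 0.798, 95% confidence interval -1.46 to 1.99, adjusted p = 0.821), and by -1.20 with the percentile class as a block (adjusted p = 0.551). Zcchc14 (mean absolute difference 0.414), the cell adhesion gene Cadm4 (0.519) and Rai14 (0.520) had the patterns most like that of Gadd45g, whose mean absolute deviation was 1.31. Control tumor 5 also had the highest Dnmt3a level among control tumors, at 9.57, against 8.19 to 8.58 in the others, and the lowest thymocyte marker mean among them, and their part in the Gadd45g result was not tested.

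**Figure D2:**
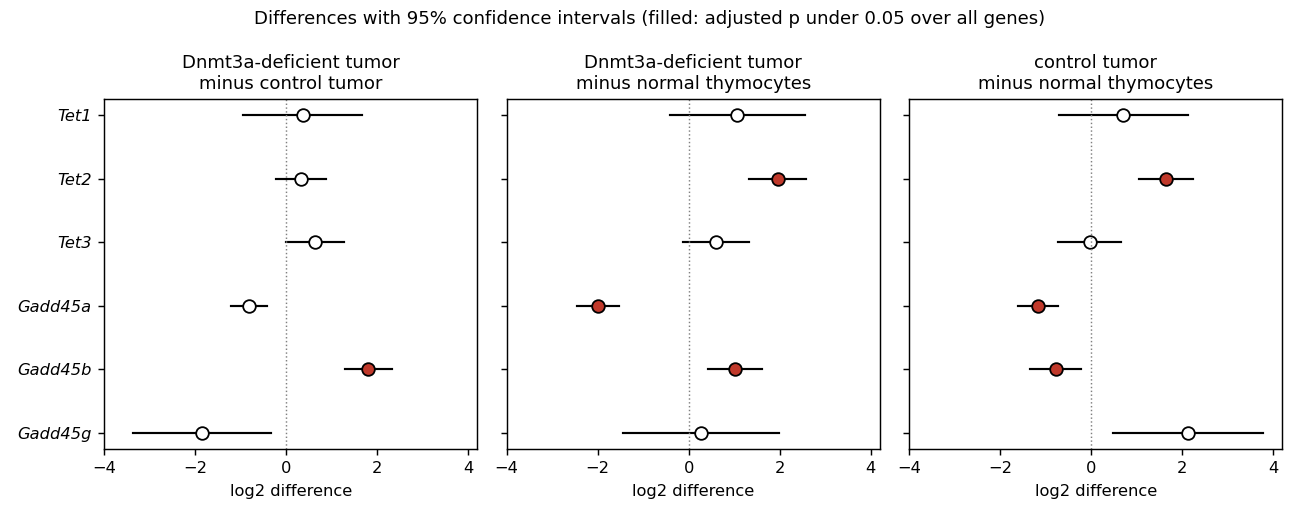
Log2 differences of the 6 genes (points) with 95% confidence intervals from limma (lines), for Dnmt3a-deficient tumor minus control tumor, Dnmt3a-deficient tumor minus normal thymocytes and control tumor minus normal thymocytes. Filled points have an adjusted p under 0.05 over all 19309 genes. Gadd45b is filled in all 3 panels, at 1.81, 1.02 and -0.79, and Tet2 is filled against normal thymocytes only, at 1.96 and 1.64.

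The comparisons of each tumor group with normal thymocytes ask how the genes stand in the lymphoma relative to the tissue of origin. In deficient tumors 3 of 6 members were called, Tet2 and Gadd45b higher and Gadd45a lower, while 37.6% of all genes were called (18.7% higher, 19% lower). In control tumors 3 of 6 were called, Tet2 higher and Gadd45a and Gadd45b lower, while 24.4% of all genes were called (13% higher, 11.3% lower). The groups did not overlap for 4 of 6 members between deficient tumors and normal thymocytes (49.7% of all genes) and for 3 of 6 between control tumors and normal thymocytes (27.7% of all genes). With shares this large over all genes, the number of members called is no result about these genes as a set. The medians over the 6 members were 0.81 and 0.34, deficient tumors first, beside -0.10 and -0.08 over all genes. Without the dimmest 50% of genes, where all 6 members remained, the medians over the genes were 0.20 and 0.06.

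Tet2, which has lost the DNA-binding CXXC domain that Tet1 and Tet3 carry, differed between tumors and normal thymocytes. It was the only TET gene called there in the fit of all 3 groups to the brightest probe sets. Its log2 levels were 8.22, 8.51, 7.96 and 8.30 in deficient tumors 1 to 4 and 8.50, 8.52, 7.69, 7.78 and 7.15 in control tumors 1 to 5. In normal thymocytes they were 6.16, 6.17 and 6.54. All 9 tumors lay above all 3 normal samples, and the tumor groups overlapped. Tet2 rose by 1.96 in deficient tumors (SE 0.289, 3.88-fold, limma adjusted p = 1.8e-04) and by 1.64 in control tumors (SE 0.276, 3.11-fold, adjusted p = 7.3e-04), and both calls held in every alternative that was run. With the percentile class as a block the difference of deficient tumors was 0.98 (adjusted p = 0.0273). That of control tumors was 2.22 for control tumors 1 and 2 and 1.25 for control tumors 3, 4 and 5 (adjusted p = 2.6e-05 and 7.2e-04). The means were 8.25 ± 0.23 for deficient tumors (SD, n = 4), 7.93 ± 0.58 for control tumors (n = 5) and 6.29 ± 0.22 for normal thymocytes (n = 3).

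The difference of Tet2 between deficient and control tumors was 0.32 (SE 0.254, 95% confidence interval -0.23 to 0.87, limma adjusted p = 0.495). It was 0.71 against control tumors 3, 4 and 5 (adjusted p = 0.0165) and -0.26 against control tumors 1 and 2 (adjusted p = 0.685). The next tested gene on chromosome 3, Cxxc4, encodes the CXXC protein that was once part of an ancestral Tet2 and lowers Tet2 protein. It differed by -0.51 between deficient tumors and normal thymocytes (adjusted p = 0.0728) and by -0.18 between control tumors and normal thymocytes (adjusted p = 0.557). Fam199x (mean absolute difference 0.141), the poly(A) polymerase gene Tent2 (0.141) and Dop1a (0.155) had the patterns most like that of Tet2, whose mean absolute deviation was 0.746.

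Tet3, the TET enzyme of the oocyte and of several differentiated tissues, had log2 levels of 9.41, 8.90, 8.79 and 9.26 in deficient tumors 1 to 4, against 9.34, 9.07, 7.88, 7.90 and 8.07 in control tumors 1 to 5. Normal thymocytes had 8.56, 8.61 and 8.28. Control tumors 1 and 2 lay among the deficient tumors, and control tumors 3, 4 and 5 lay below the normal samples. The means were 9.09 ± 0.29 for deficient tumors (SD, n = 4), 8.45 ± 0.70 for control tumors (n = 5) and 8.49 ± 0.18 for normal thymocytes (n = 3).

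The levels of Tet3 thus split the control tumors as their 75th percentiles did. Deficient tumors differed from control tumors by 0.64 (SE 0.294, limma adjusted p = 0.246), from control tumors 3, 4 and 5 by 1.14 (adjusted p = 6.0e-04) and from control tumors 1 and 2 by -0.12 (adjusted p = 0.929). Control tumors differed from normal thymocytes by -0.03 (SE 0.320, adjusted p = 0.955), with -0.54 for control tumors 3, 4 and 5 (adjusted p = 0.0470) and 0.72 for control tumors 1 and 2 (adjusted p = 0.0227). Deficient tumors differed from normal thymocytes by 0.60 (SE 0.335, adjusted p = 0.175), although all 4 lay above all 3 normal samples. That SE also holds the spread among control tumors. With only deficient tumors and normal thymocytes in the fit, the adjusted p was 0.0206. All deficient tumors were in one percentile class and all normal samples in the other. With the class as a block, which the control tumors of both classes allow, that difference was -0.65 (adjusted p = 0.109).

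The other probe set of Tet3 gave another picture. It read 8.71, 8.01, 8.15 and 8.20 in deficient tumors 1 to 4, 8.58, 8.36, 8.30, 8.26 and 8.62 in control tumors 1 to 5, and 8.63, 8.85 and 8.81 in normal thymocytes. On this set deficient tumors were lower than normal thymocytes by a log2 difference of -0.49 (SE 0.173, limma adjusted p = 0.0390 over 20870 probe sets), the opposite sign of the first set. Between deficient and control tumors it gave -0.15 (SE 0.152, adjusted p = 0.587). The sources used here do not say which transcripts each set reads, so no direction is stated for Tet3. The genes most like the first set were Fam193a (mean absolute difference 0.109), Magef1 (0.109) and Tmem42 (0.113), where the mean absolute deviation of Tet3 was 0.455.

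**Figure D3:**
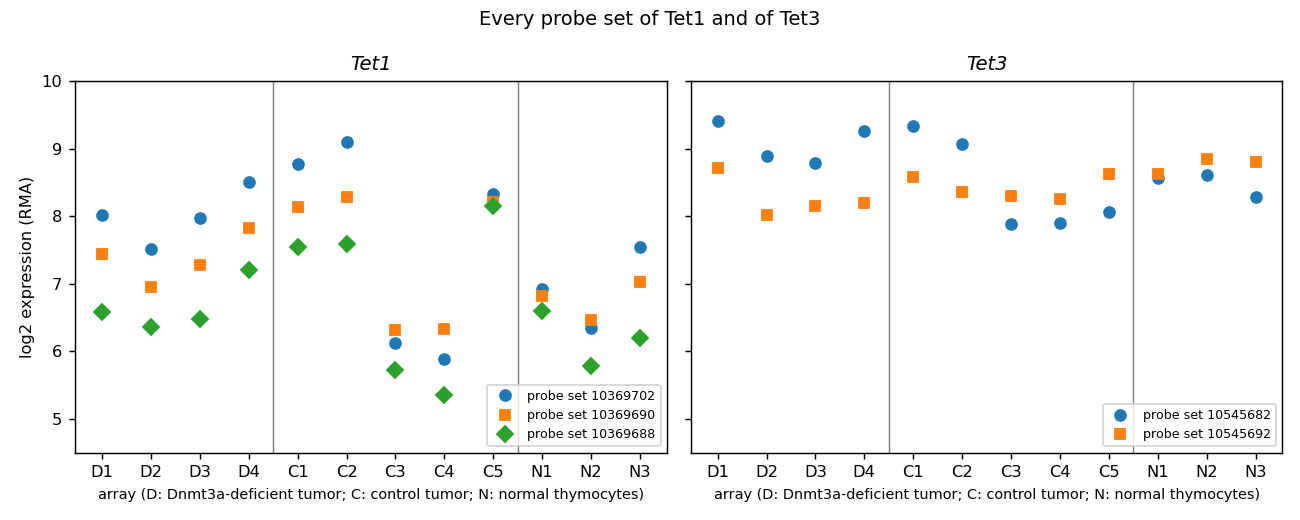
Log2 expression (vertical axis) of each probe set of Tet1 (left) and Tet3 (right) on the 12 arrays (horizontal axis), with Dnmt3a-deficient tumors D1 to D4, control tumors C1 to C5 and normal thymocytes N1 to N3 separated by lines. The 3 sets of Tet1 are low together in C3 and C4, at 5.36 to 6.33, whereas the 2 sets of Tet3 differ in which arrays are high.

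Tet1, the TET enzyme best known from embryonic stem cells and primordial germ cells, was the most uneven of the TET genes among control tumors. Its log2 levels were 8.02, 7.51, 7.97 and 8.51 in deficient tumors 1 to 4, against 8.78, 9.10, 6.12, 5.89 and 8.32 in control tumors 1 to 5. Normal thymocytes had 6.92, 6.34 and 7.54. Control tumors 3 and 4 lay below every other array and the other 3 control tumors within or above the range of the deficient tumors. The SD was 0.41 in deficient tumors (mean 8.005, n = 4), 1.52 in control tumors (mean 7.64, n = 5) and 0.60 in normal thymocytes (mean 6.94, n = 3), where the median SD over all genes was 0.186, 0.278 and 0.186 in the same order.

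The other sets of Tet1 showed the same split. In control tumors 1, 2 and 5 the second set read 8.14, 8.29 and 8.22 and the last 7.54, 7.58 and 8.15, while control tumors 3 and 4 had 6.32 and 6.33 on the second set and 5.72 and 5.36 on the last. Control tumors 3 and 4 were also the arrays with the high neutrophil marker mean, and its part in the Tet1 levels was not tested. Between deficient and control tumors the difference of Tet1 was 0.36 (SE 0.606, 95% confidence interval -0.94 to 1.67, limma adjusted p = 0.767), and -0.73 without control tumors 3 and 4 (adjusted p = 0.466). It was 1.23 against control tumors 3, 4 and 5 (adjusted p = 0.0943) and -0.93 against control tumors 1 and 2 (adjusted p = 0.319). The second and last sets gave -0.09 and -0.21, so the sign is not settled.

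Against normal thymocytes Tet1 differed by 1.07 in deficient tumors (SE 0.690, limma adjusted p = 0.243) and by 0.71 in control tumors (SE 0.660, adjusted p = 0.483). Without control tumors 3 and 4 these values were 1.07 (adjusted p = 0.0161) and 1.80 (adjusted p = 0.00219). With only deficient tumors and normal thymocytes in the fit, and so without the spread among control tumors, the limma adjusted p was 0.0141. With the percentile class as a block the differences of deficient and control tumors were -1.09 (adjusted p = 0.384) and -0.16 (adjusted p = 0.871), so these signs are not settled either. Control tumors 1 and 2 alone differed from normal thymocytes by 2.003 (adjusted p = 0.00122). On the 3 sets the difference of control tumors was 0.71, 0.69 and 0.68. Golim4 (mean absolute difference 0.405), the selenium-binding protein gene Selenbp1 (0.409) and Bivm (0.431) had the patterns most like that of Tet1, whose mean absolute deviation was 0.864. Among the neighbours of Tet1 on chromosome 10, Dna2, a nuclease and helicase of DNA replication located 2 tested genes away, was higher by 0.68 in deficient than in control tumors (SE 0.138, adjusted p = 0.0453). Dna2 was also higher than in normal thymocytes, by 1.41 in deficient and 0.73 in control tumors (adjusted p = 2.0e-05 and 0.00297). The neighbours Ccar1, Slc25a16 and Stox1 differed by 0.56, 0.60 and -0.24 between the tumor groups (adjusted p = 0.23, 0.266 and 0.333) and were not called there. Ccar1 was higher than in normal thymocytes by 2.16 in deficient and 1.60 in control tumors (limma adjusted p = 7.1e-05 and 7.4e-04). Slc25a16 was higher by 1.51 in deficient tumors (adjusted p = 0.00323) and differed by 0.91 in control tumors (adjusted p = 0.0542). Stox1 was called in neither tumor group against normal thymocytes.

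Partner and pathway genes of both families were then read from lists chosen with earlier results of these data known. Of 82 listed genes 70 were measured. Between deficient and control tumors none of the 70 was called with limma, against 0.818% of all genes. At an unadjusted p under 0.05 there were 19, or 27.1%, beside 20.2% of all genes. Against normal thymocytes 18 were higher and 9 lower in deficient tumors (38.6% called), and 15 were higher and 9 lower in control tumors (34.3% called). These shares lie beside 37.6% and 24.4% of all genes. The counts of each list, given next, stand beside 18.7% of all genes higher and 19% lower in deficient tumors. In control tumors 13% of all genes were higher and 11.3% lower. No list was tested against these shares.

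Genes that work with TET enzymes moved in both directions. In deficient tumors 6 of 19 were higher and 3 lower than in normal thymocytes, and in control tumors 5 were higher and 3 lower. The median log2 difference of this list was -0.13 in deficient and -0.18 in control tumors. Smarca5, a chromatin remodeling ATPase, rose by 2.37 in deficient and 2.27 in control tumors (limma adjusted p = 1.1e-04 and 1.6e-04). Dcaf1, the substrate receptor of the ubiquitin ligase that modifies TET proteins, rose by 1.41 and 0.93, deficient tumors first (adjusted p = 1.7e-05 and 4.4e-04). Cxxc5, a CXXC protein related to Cxxc4, fell by 0.83 in deficient tumors (adjusted p = 0.00723) and fell by 1.46 in control tumors (adjusted p = 1.5e-04). D2hgdh, which removes the TET inhibitor D-2-hydroxyglutarate, fell by 1.04 and 0.61 in the same order (adjusted p = 6.8e-04 and 0.0212).

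Base excision repair genes, which act after TET oxidation, had 5 of 18 higher and none lower in deficient tumors, with a median of 0.39, and 5 higher and 1 lower in control tumors, with a median of 0.18. The medians over all genes were -0.10 and -0.08. Mbd4, a glycosylase for mismatched thymine, rose by 1.02 in deficient tumors (limma adjusted p = 0.00135) and by 0.74 in control tumors (adjusted p = 0.0113). Lig3, a DNA ligase, rose by 1.08 and 0.75, deficient tumors first (adjusted p = 4.1e-05 and 6.8e-04). Neil1, a glycosylase of oxidised bases, fell by 1.11 in control tumors (adjusted p = 0.0152) and differed by -0.52 in deficient tumors (adjusted p = 0.211). Tdg, the glycosylase that acts on oxidised cytosine, was not analysed here. Of 4 cytosine deaminase genes Apobec1 was the one called, higher by 1.08 in deficient tumors (adjusted p = 0.00497) and 0.87 in control tumors (adjusted p = 0.0187).

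Another list held genes for stress-activated kinases and for cell cycle partners of Gadd45 proteins. Of 12 measured, 4 were higher and none lower in deficient tumors than in normal thymocytes. In control tumors 2 were higher and 1 lower. The medians were 0.22 and 0.04, deficient tumors first. Mapk8, which encodes the kinase JNK, rose by 1.63 and 1.22 (limma adjusted p = 2.3e-04 and 0.00204), and its activator Map2k4 by 1.28 and 0.84 (adjusted p = 6.8e-04 and 0.0118), in the same order. Cdk1, the mitotic kinase that Gadd45 proteins inhibit, rose by 0.92 in deficient tumors (adjusted p = 0.00358) and differed by 0.32 in control tumors (adjusted p = 0.269). Map3k4, the kinase that Gadd45 proteins activate, differed by 0.16 in deficient tumors (adjusted p = 0.391) and 0.05 in control tumors (adjusted p = 0.818).

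Of 17 measured inducers of Gadd45 genes, 2 were higher and 6 lower in deficient tumors and 2 were higher and 4 lower in control tumors, with medians of -0.25 and -0.33. Brca1, a DNA repair gene, rose by 2.07 in deficient and 1.64 in control tumors (limma adjusted p = 8.0e-06 and 5.3e-05). The NF-kappaB genes Nfkb2 and Relb fell by 1.36 and 1.23 in deficient tumors (adjusted p = 0.00156 and 6.6e-04) and by 1.11 and 0.87 in control tumors (adjusted p = 0.00640 and 0.00711). Foxo4, a forkhead factor, fell by 1.29 in deficient tumors and fell by 1.30 in control tumors (adjusted p = 4.9e-04 and 5.1e-04). Egr1, an early growth response factor, fell by 1.19 in deficient tumors (adjusted p = 0.00637) and differed by -0.39 in control tumors (adjusted p = 0.344). The other NF-kappaB genes measured, Rel and Rela, were not called in either tumor group, with differences of 0.08 and 0.02 in deficient tumors and 0.15 and -0.35 in control tumors.

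**Figure D4:**
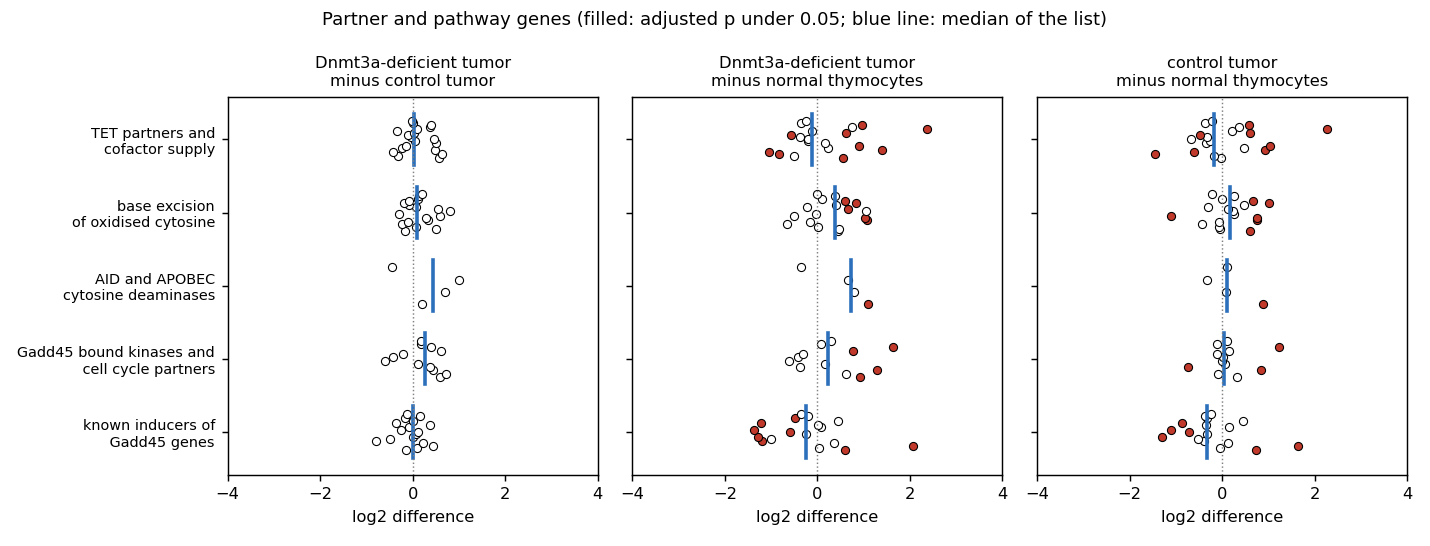
Log2 differences (horizontal axis) of 70 partner and pathway genes in 5 lists (rows), for Dnmt3a-deficient tumor minus control tumor, Dnmt3a-deficient tumor minus normal thymocytes and control tumor minus normal thymocytes. Points are genes, filled where the adjusted p over all genes is under 0.05, and blue lines are list medians. No point is filled between the tumor groups, against 27 and 24 between the tumor groups, deficient first, and normal thymocytes.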

How the data were processed

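Expression arrays of mouse thymus RNA (200 ng per sample, labelled with biotin, per the labels' protocols) were read as deposited by the authors: log2 expression per probe set, which the submitters' processing notes credit to RMA and Affymetrix Expression Console with no version. RMA quantile-normalizes probe intensities and not the summarized values per probe set, whose deposited 75th percentiles differ between arrays. The sources used here do not say which arrays were normalized together, and normalization in groups would bear on every difference. Such values cannot show a shift of all RNA in a cell.

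Of 23858 probe sets 20870 had 1 symbol in the platform annotation, and 1453 with several and 1535 with none were not used. Symbols were updated through RefSeq gene identifiers (20822 found), and 1 set per gene left 19309 genes. Groups and replicate numbers came from sample titles. A limma 3.58.1 model (R 4.3.3) of 3 group means was fitted to all 12 arrays, with 9 residual and 4.17 prior degrees of freedom, two-sided tests and Benjamini-Hochberg adjustment over the genes of a contrast, called under 0.05. The fit was tested on simulated data.

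The members and lists were chosen with earlier results of these data known. Named beside the members were Dnmt3a, up to 4 called genes per list with the largest difference, and the 3 most similar genes per member, leaving out gene models without a name, microRNAs, antigen receptor segments and the olfactory and vomeronasal receptors. The text prints part of these, picked after values were seen. It adds the neighbours of Gadd45b and of Tet1, and also Cxxc4, Map3k4, Egr1, Rel, Rela and Tdg. The labels state no pairing of arrays that share a replicate number, and the main fit used none. Correlations of same-numbered deviations ran from -0.134 to 0.338, and so few arrays cannot settle whether any were paired. Alternatives were other scalings, filters, probe set rules, variance models, blocks and arrays left out.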

Additional observations from a re-analysis of the deposited data

Results flagged for a closer look

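Gadd45g in control tumor 5 was at a log2 level of 5.65, far below the other 4 control tumors, which had 8.78 to 9.68. The gap to the nearest of them was 0.777 of the group's whole range. Chance alone marks about 1 in 20 groups in this way, and 12 groups of tumors were looked at, 1 for each member in each tumor group. No explanation was tested.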

How the results depend on the processing

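Between deficient and control tumors the number of genes called was 158 and moved widely: 378 after median centring, 104 with a replicate block, 67 with the percentile class as a block, 1 when only the tumors were fitted (3524 at an unadjusted p under 0.05), 4886 without control tumors 1 and 2, 6 without control tumors 3 and 4, 82 without control tumors 3, 4 and 5 (chosen after the data were seen), and 16 to 1482 when 1 array was left out, lowest without deficient tumor 4, highest without control tumor 2, and over 1.5 times from 158 for each array but control tumor 5 and deficient tumor 2. Of these calls 72.2% were higher, against 87.6% after median centring, 59.5% after a second quantile normalization and 59.2% after cyclic loess. Most calls were lower with the percentile class as a block (29.9% higher) and without control tumors 3, 4 and 5 (20.7% higher). Members called there were 1, and 2 without dim genes (195 of the genes kept) or with the replicate block. There were 4 without control tumors 1 and 2, and 1 to 2 with 1 array left out. There were 0 without control tumors 3 and 4 or when only the tumors were fitted. At an unadjusted p under 0.05 both of these fits had 3 members, beside 1937 and 3524 of all 19309 genes, in that order. Under the replicate block Gadd45g was called in that comparison (-2.59, adjusted p = 0.0283). With that block control tumors against normal thymocytes lost the call of Gadd45b (-0.87, adjusted p = 0.0550) and gained that of Gadd45g (2.84, adjusted p = 0.00150).

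Against normal thymocytes 5 members were called in deficient tumors when only the 2 groups were fitted (8639 of all 19309 genes), and 5 in each tumor group without control tumors 3, 4 and 5 (8731 genes in deficient and 6854 in control tumors). Genes called in deficient tumors fell to 3562 with the percentile class as a block, where 7262 were called without it, and 60.4% of calls were higher after median centring and 63.2% without dim genes, against 49.6%. The median difference of all genes there was -0.00 after cyclic loess, against -0.10.

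Signs turned only for Tet1, Tet3, Tet2 and Gadd45g, where the difference was not called as reported. With the percentile class as a block the differences of Tet1, Tet2 and Tet3 between deficient and control tumors were -0.93, -0.26 and -0.12, the same as without control tumors 3, 4 and 5. With that block Tet1, Tet3 and Gadd45g differed by -1.09, -0.65 and -1.20 between deficient tumors and normal thymocytes, and Tet1 by -0.16 between control tumors and normal thymocytes, also without control tumors 1 and 2. Without control tumors 3 and 4 Tet1 was at -0.73 between the tumor groups and Tet3 at 0.34 between control tumors and normal thymocytes, where it was 0.14 with the replicate block and 0.72 without control tumors 3, 4 and 5. Other probe sets gave -0.087 and -0.21 for Tet1 and -0.15 for Tet3 between the tumor groups, and -0.49 for Tet3 between deficient tumors and normal thymocytes. With 1 array left out, Tet1 ran from -0.075 to 0.73 between the tumor groups, Gadd45g from -0.061 to 0.66 between deficient tumors and normal thymocytes, and Tet3 from -0.26 to 0.11 between control tumors and normal thymocytes. Of 432 member differences under alternatives, other probe sets aside, 368 kept direction and side of the threshold, 18 lost and 23 gained a call, and 23 turned sign. The cause of these changes was not tested. The number of arrays limits the precision.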
